A study of Rattus norvegicus with 138 samples.

Results

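Msc, Snai1, Snai2, Tcf21, Tcf7l2, Prrx1 and Meox2 are transcription factors that mark mesenchymal cells or repress myogenesis. The 7 genes were picked by symbol from the 16181 symbols of a table of expression in the whole tibialis anterior (TA) muscle of Lewis rats. In volumetric muscle loss (VML) a full-thickness piece of the left TA was removed with a biopsy punch, an injury too large for the muscle to rebuild, and RNA from the whole muscle was sequenced 3, 7, 14 or 28 days post injury (DPI). Injured muscles were either left without repair (non-repaired) or filled with a minced muscle graft (MMG), small fragments of the tissue that had been removed, and rats of both arms were labelled as running (Run) or non-running (NoRun). The uninjured TA of the opposite leg of some of these rats gave the contralateral group. The control group was 4 muscles, left and right TA of 2 rats, labelled Sham at day 0 with NoRun and NoRepair. The study's results section describes its controls as unoperated. All groups shared the strain, the sex (adult males, per the methods) and the muscle.

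After libraries with few detected genes were left out, 114 muscles of 78 rats remained, of which 76 were injured, 34 contralateral and 4 control. Non-running injured groups held 3, 8, 4 and 4 non-repaired and 7, 8, 4 and 4 MMG muscles at 3, 7, 14 and 28 DPI. Running injured groups held 8, 4, 4 and 2 non-repaired and 6, 4, 4 and 2 MMG muscles at the same days. Contralateral groups held 2 muscles each, except the non-running groups at 7 DPI with 6 (MMG) and 4 (non-repaired), and none was assigned for running rats at 28 DPI. Values were TPM (transcripts of a gene among all transcripts of a library, on a fixed scale), a level corrected for transcript length, so levels of different genes could be set side by side. The read depth of single libraries was unknown from these values. Injured muscles had 9899 to 10948 symbols above 1 TPM, contralateral muscles 8535 to 9736 and control muscles 7866 to 8914. The control rats carried numbers of 1 series and all operated rats numbers of another, so injury and series cannot be told apart in any comparison with control. Whole-muscle values do not separate more cells of a type from more RNA per cell.

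Between the fibers of skeletal muscle lie fibro-adipogenic progenitors and connective tissue fibroblasts, which expand after injury and lay down matrix, and several transcription factors that pattern limb mesenchyme in the embryo stay on in these cells. Muscle regeneration itself depends on the myogenic basic helix-loop-helix (bHLH) factors such as MyoD and myogenin, which bind E-boxes with an E protein partner. Factors that compete for the partner or occupy the E-boxes can hold differentiation back.

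Among the members, Prrx1 is a paired-type homeobox factor of limb mesenchyme and of fibro-adipogenic progenitors. Meox2 is a homeobox factor of mesenchyme and of developing limb muscle. Tcf7l2, an effector of the Wnt and beta-catenin pathway, marks muscle connective tissue fibroblasts. Tcf21 is a bHLH factor of mesenchymal progenitors. Snai1 and Snai2 are zinc-finger repressors that bind E-boxes and are known for epithelial-to-mesenchymal transition, and Snai1 is known to occupy E-boxes of muscle genes in myoblasts. Msc (musculin, also called MyoR) is a bHLH repressor that antagonises MyoD.

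Because Snai1, Snai2 and Msc act through E-boxes and Tcf7l2 through TCF sites, the windows around the members' start sites were read for those letters. Sequences were those of RefSeq on build GRCr8, from 250 bases before to 50 bases after the start, and 5 of the 7 members were matched (Snai1, Meox2, Prrx1, Tcf7l2 and Tcf21). Letters were searched on both strands as CANNTG for any E-box, CACCTG or CAGGTG for the E-box form bound by snail factors (itself one of the CANNTG forms), and ATCAAAG or CTTTGAT for the TCF and LEF site. The 3 windows with a match are shown 5′ to 3′ on the strand of the gene, with the matched letters in capitals: Snai1 (chr3:176667226-176667525, plus strand), Meox2 (chr6:59583775-59584074, plus strand) and Prrx1 (chr13:78204024-78204323, minus strand).
Snai1: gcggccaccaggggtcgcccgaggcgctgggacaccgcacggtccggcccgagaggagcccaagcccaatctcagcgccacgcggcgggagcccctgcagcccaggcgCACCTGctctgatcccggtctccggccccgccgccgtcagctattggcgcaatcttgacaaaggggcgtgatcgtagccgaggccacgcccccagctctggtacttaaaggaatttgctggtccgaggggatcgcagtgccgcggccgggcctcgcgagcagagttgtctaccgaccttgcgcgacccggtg
Meox2: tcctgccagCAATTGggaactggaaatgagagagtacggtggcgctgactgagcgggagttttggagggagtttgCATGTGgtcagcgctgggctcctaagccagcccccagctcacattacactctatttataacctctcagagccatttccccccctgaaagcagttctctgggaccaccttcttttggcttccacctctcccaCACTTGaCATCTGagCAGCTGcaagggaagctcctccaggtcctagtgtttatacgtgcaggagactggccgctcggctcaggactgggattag
Prrx1: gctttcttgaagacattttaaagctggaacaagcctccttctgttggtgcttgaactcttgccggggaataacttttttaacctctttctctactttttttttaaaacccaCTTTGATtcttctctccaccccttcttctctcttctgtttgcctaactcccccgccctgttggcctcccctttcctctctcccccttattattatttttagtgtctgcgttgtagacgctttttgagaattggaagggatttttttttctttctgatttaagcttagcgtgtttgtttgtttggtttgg
The Snai1 window held 1 E-box, the snail form CACCTG, at base 109. The Meox2 window held 5 E-boxes of other forms, at bases 10, 76, 207, 214 and 222. The Prrx1 window held the TCF and LEF letters CTTTGAT at base 112. The windows of Tcf7l2 and Tcf21 held none of these letters. Over all 33469 promoter windows of the same length, 18.8% held CACCTG or CAGGTG, 72.1% any CANNTG and 3.63% the TCF and LEF letters. A match is a description of the letters only.

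In uninjured control muscle the members spanned a wide range of levels. Prrx1 was the highest, at 19.57, 17.7, 20.72 and 7.68 TPM in the left and right TA of the first control rat and the left and right TA of the second (16.4 ± 5.96, mean ± SD, n = 4). Meox2 followed at 6.21, 5.27, 7.02 and 3.19 TPM (5.42 ± 1.65). The right TA of the second rat was the lowest for both homeobox genes, and was also the control library with the fewest symbols above 1 TPM, 7866.

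Tcf7l2 (1.57, 1.57, 1.85 and 0.78 TPM, 1.44 ± 0.461) and Snai1 (1.08, 1.43, 1.1 and 1.07 TPM, 1.17 ± 0.174) had overlapping control levels. Snai2 was at 0.24, 0.28, 0.33 and 0.41 TPM (0.315 ± 0.0733) and Msc at 0.85, 0.2, 0.32 and 0 TPM (0.343 ± 0.363), and these also overlapped. In order of level, control muscle thus held Prrx1 above Meox2, Meox2 above Tcf7l2 and Snai1, and Snai2 and Msc below those, with the highest Msc value inside the range of Tcf7l2.

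Tcf21 was close to absent from this table in all groups. It was listed at 0 in all 4 control muscles, above 0 in 1 of 34 contralateral and 15 of 76 injured muscles, and reached at most 0.08 TPM, so it did not pass the filter of a group mean above 1 TPM and was not tested. The other 6 members passed. A value of 0 in a TPM table may lie below what a library could show, and no floor can be given without counts.

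**Figure D1:**
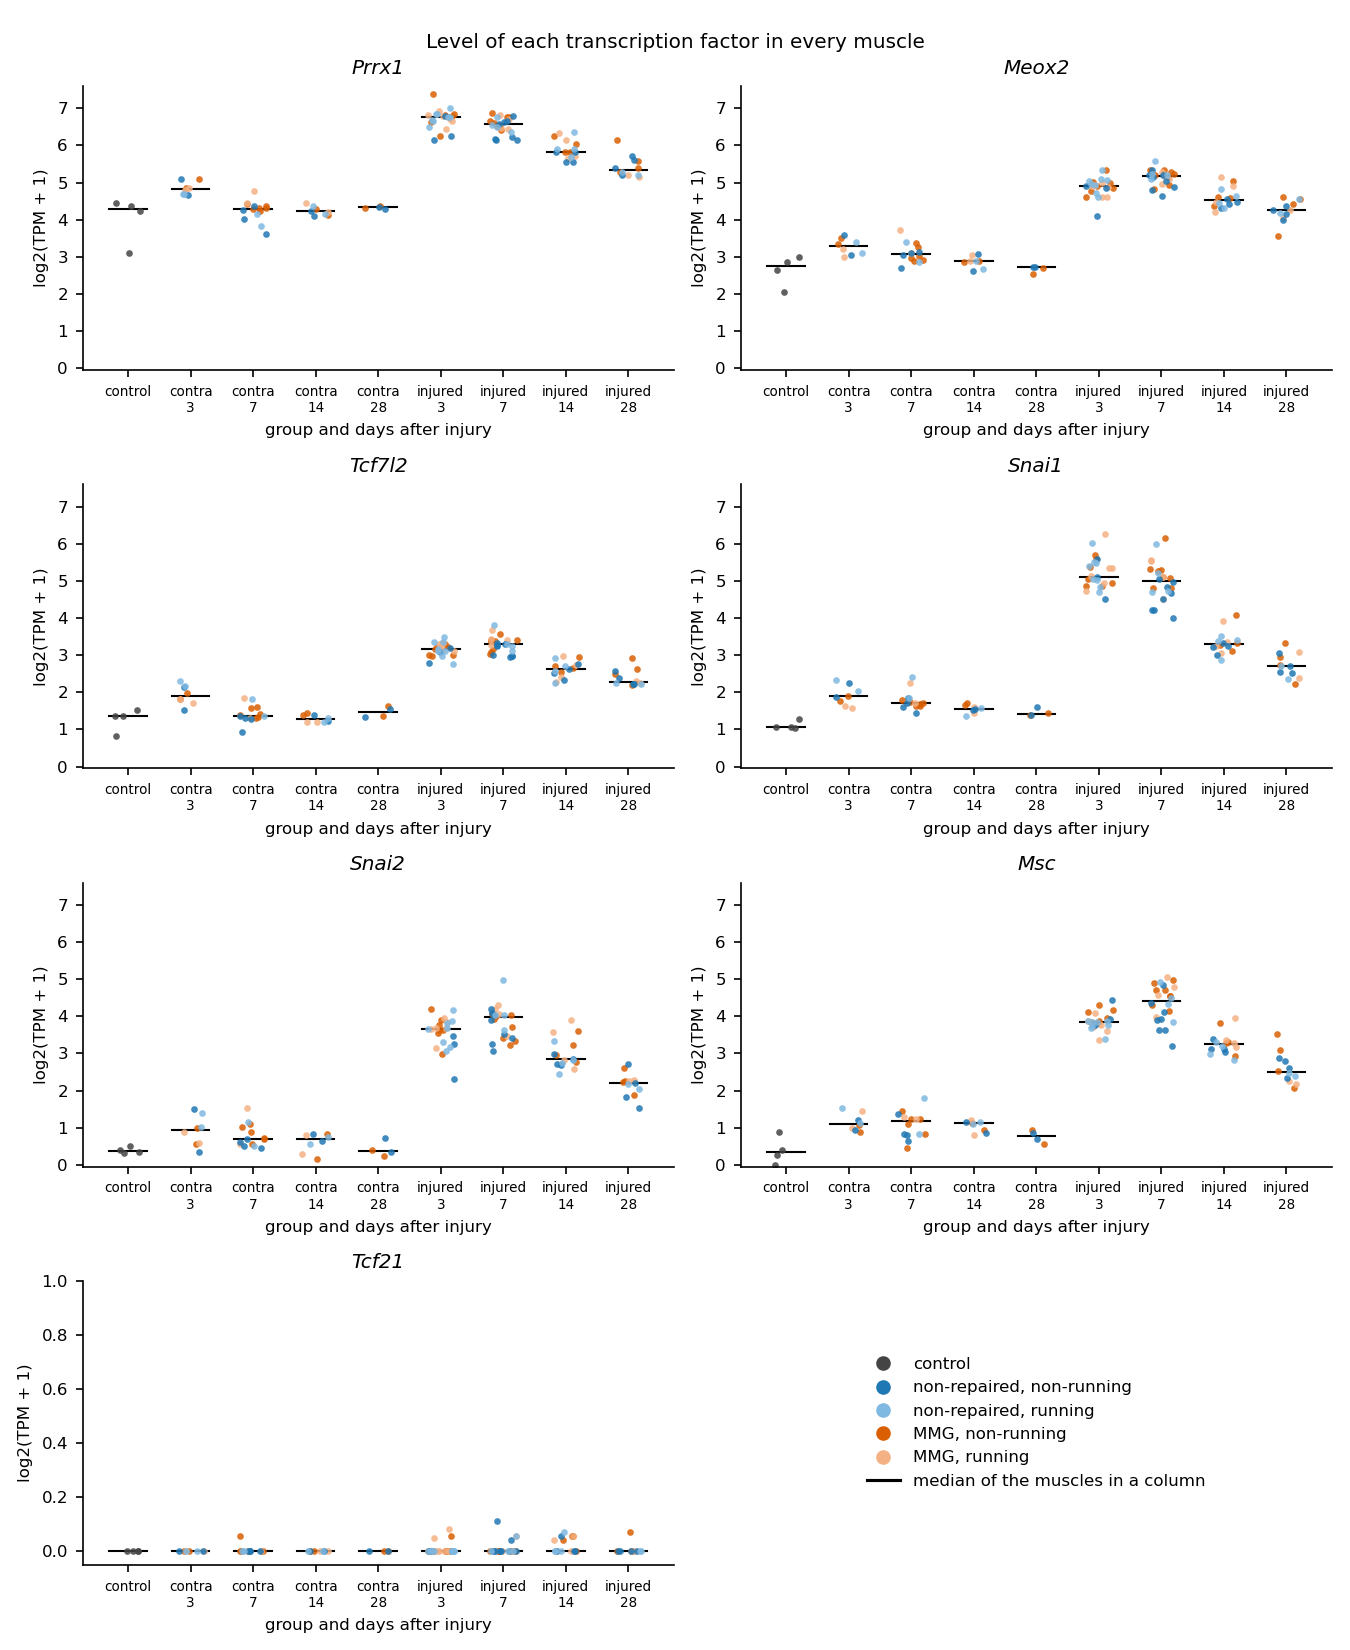
Level of each of the 7 members in every muscle, as log2(TPM + 1) on the vertical axis, with control, contralateral and injured muscles by days after injury along the horizontal axis and all repair and running groups pooled. Each point is 1 muscle. For the 6 tested members the 76 injured points lie above all 4 control points, while Tcf21, drawn on its own scale, stays at or below 0.08 TPM.

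All 6 tested members were higher in non-repaired injured muscle than in control muscle at every day, and they were so in grafted muscle too. Over all 76 injured muscles, running or not, each of the 6 exceeded its highest control value in 76 of 76, as did 42.4% of all tested genes. The comparisons below were made with limma across 11328 genes on log2(TPM + 1), and a gene was called when the Benjamini-Hochberg adjusted p was under 0.05 and the log2 fold change was beyond 1.

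Msc, the MyoD antagonist, was below 1 TPM in every control muscle and rose at each day. In non-repaired non-running rats it stood at 14.12, 20.56 and 12.51 TPM at 3 DPI. At 7 DPI its 8 values ran from 8.18 to 27.7 TPM with a median of 14.1. No injured value came near the control range, whose top was 0.85 TPM. At 14 DPI it was at 7.72, 7.69, 9.46 and 7.14 TPM and at 28 DPI at 6.3, 5.1, 4.1 and 5.9 TPM, all above every control. The 14 DPI values reached into the range at 7 DPI, and the 28 DPI values lay below both early groups. The ratio of mean TPM to control was 45.9, 44.7, 23.4 and 15.7 at 3, 7, 14 and 28 DPI, a ratio that rests on control values between 0 and 0.85 TPM and so gives no firm rank against the ratio of Snai2. On the log2(TPM + 1) scale, which understates the change of so low a gene, the differences were 3.65 ± 0.25 (SE, adjusted p = 5.24e-24), 3.56 ± 0.20 (adjusted p = 3.37e-29), 2.78 ± 0.23 (adjusted p = 1.87e-18) and 2.27 ± 0.23 (adjusted p = 3.41e-14).

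Both snail repressors were above control at each day. Snai1 was at 46.94, 33.22 and 22 TPM at 3 DPI, between 15 and 32.2 TPM with a median of 23.2 at 7 DPI, at 7.07, 8.27, 9.07 and 8.47 TPM at 14 DPI and at 5.55, 4.82, 4.77 and 7.26 TPM at 28 DPI. Its highest values were thus early, and the groups at 7 and 14 DPI did not overlap, a separation that was not counted over all genes. The ratio of mean TPM to control was 29.1 at 3 DPI and 19.9, 7.03 and 4.79 at the later days. The log2 differences from control were 3.95 ± 0.28, 3.44, 2.09 and 1.59, with adjusted p between 8.18e-26 and 8.25e-08.

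Snai2 was at 9.99, 8.57 and 3.92 TPM at 3 DPI and between 7.35 and 17.4 TPM, with a median of 12.2, at 7 DPI. It was at 5.57, 6.18, 6.88 and 5.44 TPM at 14 DPI and at 1.89, 3.61, 2.55 and 5.55 TPM at 28 DPI. Its mean was highest at 7 DPI and that of Snai1 at 3 DPI, though for both genes the 3 and 7 DPI values overlapped. The ratio of mean TPM to control was 23.8, 39.3, 19.1 and 10.8, and the log2 differences were 2.61 ± 0.28 (adjusted p = 5.23e-14), 3.29 ± 0.23 (adjusted p = 6.2e-24), 2.41 ± 0.26 (adjusted p = 2.29e-13) and 1.68 ± 0.26 (adjusted p = 4.83e-08).

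Prrx1 stayed the most abundant member in every group, as a level in TPM. It stood at 75.65, 109.94 and 70.24 TPM at 3 DPI and between 69.3 and 109 TPM, with a median of 84.2, at 7 DPI. These values were all more than 3 times the highest control. At 14 DPI it was at 45.72, 46.03, 55.95 and 55.26 TPM and at 28 DPI at 35.79, 41.33, 51.78 and 47.39 TPM. Its ratio to control was 5.19, 5.22, 3.09 and 2.68, and the log2 differences were 2.37 ± 0.19, 2.38, 1.65 and 1.44, with adjusted p between 6.32e-26 and 2.43e-11.

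Meox2 was at 27.83, 29.08 and 16.24 TPM at 3 DPI and between 24.1 and 39.2 TPM, with a median of 33.1, at 7 DPI. It was at 18.96, 21.49, 22.47 and 20.47 TPM at 14 DPI and at 14.79, 16.86, 18.15 and 19.66 TPM at 28 DPI, so that its latest values reached into the range of its earliest. The ratio to control was 4.5, 5.91, 3.84 and 3.2. The log2 differences were 1.98 ± 0.19 (adjusted p = 4.48e-16), 2.39 ± 0.15 (adjusted p = 1.52e-25), 1.80 (adjusted p = 4.67e-15) and 1.55 (adjusted p = 3.85e-12).

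On log2(TPM + 1), Tcf7l2 had the smallest difference from control at each day, though not the smallest ratio. It was at 7.5, 8.07 and 5.89 TPM at 3 DPI, between 6.72 and 9.05 TPM with a median of 7.75 at 7 DPI, at 4.05, 4.74, 5.8 and 5.1 TPM at 14 DPI and at 3.71, 3.71, 4.25 and 4.94 TPM at 28 DPI. Each of these lay above the highest control, 1.85 TPM. Its ratio to control was 4.96, 5.43, 3.42 and 2.88, and its log2 differences of 1.75 ± 0.16, 1.87 ± 0.13, 1.29 ± 0.15 and 1.09 ± 0.15 (95% interval at 28 DPI 0.80 to 1.38) had adjusted p between 1.35e-24 and 4.73e-10. Without the right TA of the second control rat its 28 DPI difference was 0.95 and no longer called.

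Against the background of all tested genes these calls were common. At 3, 7, 14 and 28 DPI, 48.3%, 45.6%, 25% and 21.1% of the 11328 genes were called higher in non-repaired muscle, beside 6 of 6 members at each day. The median log2 difference of the members was 2.489, 2.841, 1.945 and 1.571, beside 0.961, 0.915, 0.527 and 0.517 over all tested genes. TPM is a share of each library, and 16 of 16 muscle fiber markers were called lower at 3 DPI, so rises are also given against the all-gene median. Relative to the all-gene median, Msc and Snai1 were 2.69 and 2.99 higher at 3 DPI, Snai2 and Prrx1 1.65 and 1.41, and Meox2 and Tcf7l2 1.02 and 0.79. With libraries rescaled by size factors, all 6 members stayed above control at each day, but the count called was 4, 6, 4 and 3, beside 24.5%, 21.9%, 15.8% and 11.5% of all genes. Under that scaling Msc (3.15, 3.12, 2.70 and 2.20), Snai1 (3.12, 2.67, 1.68 and 1.20) and Snai2 (2.03, 2.75, 2.23 and 1.49) kept their calls at all days. Prrx1 was at 1.26, 1.34, 1.00 and 0.81, Meox2 at 0.95, 1.42, 1.21 and 0.97, and Tcf7l2 at 0.95, 1.11, 0.88 and 0.69 under it, so their calls were lost at 28 DPI and at some earlier days.

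In MMG-treated non-running muscle all 6 members were again called higher than in control at each day, with log2 differences of 1.86 to 4.09 at 3 DPI, 2.04 to 4.22 at 7 DPI, 1.45 to 2.95 at 14 DPI and 1.29 to 2.41 at 28 DPI. Of all tested genes, 53.5%, 51%, 31.8% and 25.3% were called higher there. With size factors 5, 6, 5 and 3 members were called, beside 25.6%, 24.1%, 17.3% and 13.1% of all genes. The MMG and non-repaired comparisons share the 4 control muscles.

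**Figure D2:**
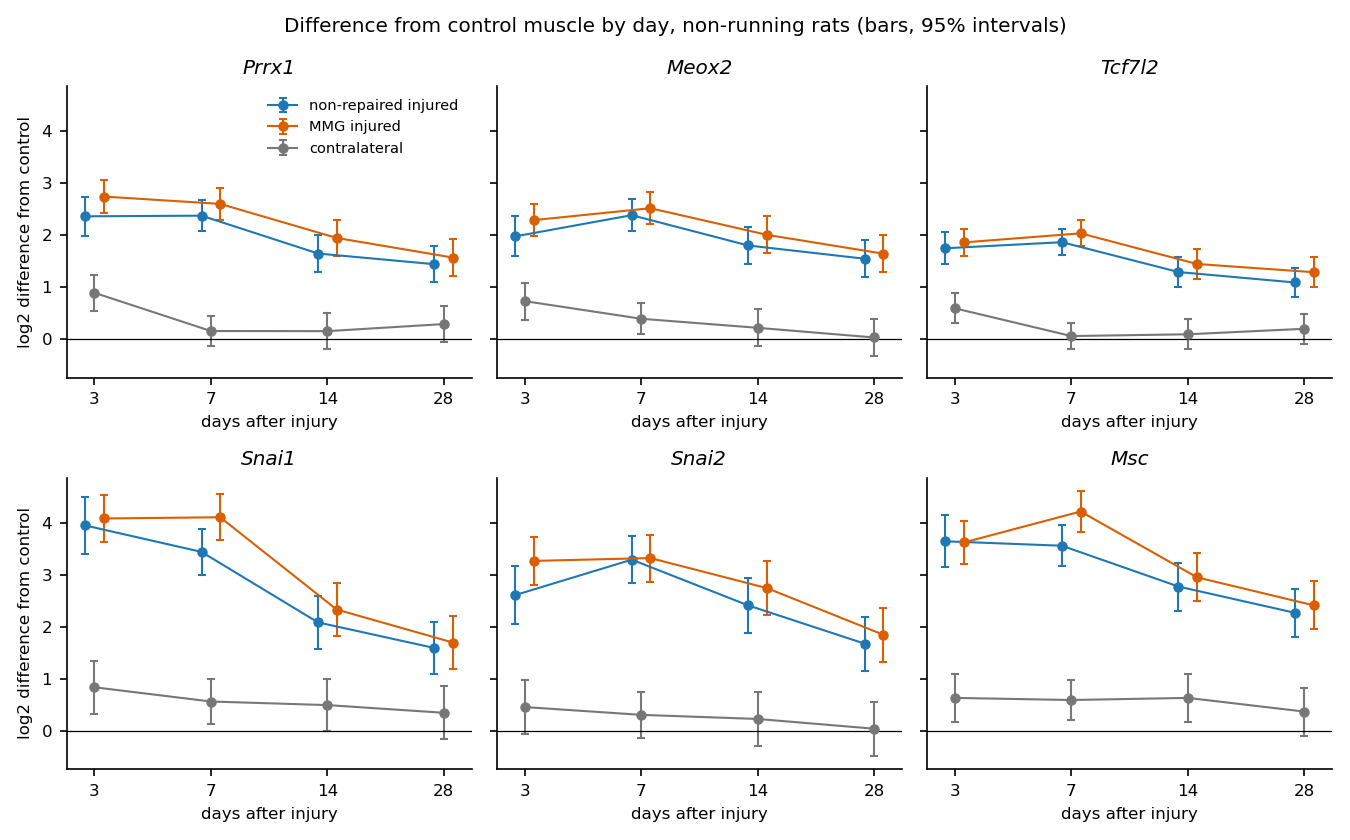
Log2 difference from control muscle (vertical axis, on log2(TPM + 1)) by days after injury (horizontal axis) for the 6 tested members in non-running rats. Separate colours mark the non-repaired arm, the MMG arm and, in grey, contralateral muscle averaged over both arms. Bars are 95% intervals from limma. In the non-repaired arm Snai1 stood at 3.95 at 3 DPI and 1.59 at 28 DPI, and Tcf7l2 lay between 1.09 and 1.87.

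The contralateral TA allowed the same question to be asked within the operated rats. In 34 rats with both muscles, each of the 6 tested members was higher in the injured than in the contralateral muscle in 34 of 34, as were 49.2% of all tested genes. The median difference within a rat, on log2(TPM + 1), was 2.78 for Snai1, 2.76 for Msc, 2.72 for Snai2, 2.03 for Prrx1, 1.84 for Meox2 and 1.49 for Tcf7l2. Tcf21 was higher in the injured muscle in 9 of 34 rats, at levels of no more than 0.08 TPM.

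On each day the lowest injured muscle exceeded the highest contralateral muscle of that day for all 6 members (24 of 24, 24 of 24, 16 of 16 and 12 of 12 injured muscles at 3, 7, 14 and 28 DPI). Of all tested genes, 35.6% were separated in this way on all 4 days. With the days mixed, the groups overlapped for some members. Of 76 injured muscles, 76 were above every contralateral muscle for Msc and Prrx1, 75 for Snai2 and Meox2, 73 for Snai1 and 68 for Tcf7l2, and 9.08% of all tested genes had all 76 above.

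In non-running rats, averaged over the repair arms, the limma comparison of injured with contralateral muscle called 6, 6, 6 and 5 members higher at 3, 7, 14 and 28 DPI, beside 34.8%, 43.8%, 23.4% and 16% of all tested genes. The all-gene median differences were 0.598, 0.873, 0.540 and 0.431. Msc differed by 3.00, 3.30, 2.23 and 1.97 on the log2 scale. Snai1 differed by 3.18, 3.21, 1.72 and 1.30 and Snai2 by 2.49, 3.00, 2.35 and 1.72. The repressors were thus further from the all-gene median than the mesenchymal factors at 3 and 7 DPI. Prrx1 differed by 1.66, 2.33, 1.64 and 1.22, Meox2 by 1.40, 2.06, 1.69 and 1.56, and Tcf7l2 by 1.21, 1.89, 1.28 and 0.99. The last Tcf7l2 value (adjusted p = 1.07e-10) was under the fold limit and is the 1 member not called. It was called in the MMG arm alone (1.06) and in refits that left out 1 of several injured or contralateral muscles (1.00 to 1.06), and with a pseudocount of 0.1 (1.30).

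In running rats the comparison called 6 of 6 members at 3, 7 and 14 DPI, beside 35.6%, 40% and 24.6% of all genes. Msc was at 2.48, 3.21 and 2.19, Snai1 at 3.38, 3.11 and 1.84 and Prrx1 at 1.98, 2.28 and 1.67. In the non-repaired arm alone 5 of 6 were called at 3 DPI, with the lowest difference at 0.94, beside 33.7% of all genes called higher. Rescaling by size factors left 4, 6, 4 and 3 members called in non-running rats at 3, 7, 14 and 28 DPI and 5, 6 and 5 in running rats at 3, 7 and 14 DPI, with no direction turned. Beside these counts, 21.2%, 20%, 12% and 8.58% of all genes were called higher in non-running rats and 22.3%, 20% and 12.7% in running rats.

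**Figure D3:**
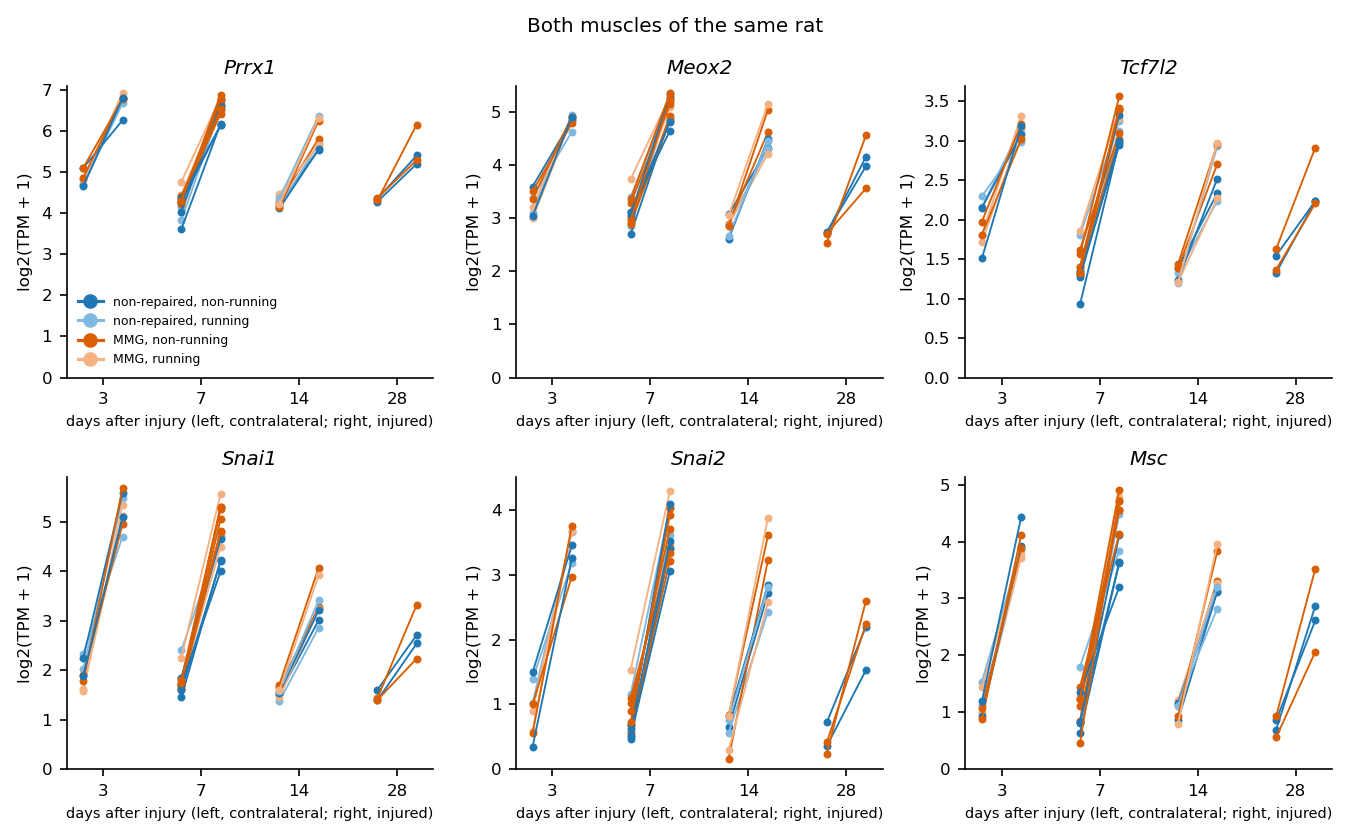
Both TA muscles of the same rat for the 6 tested members, as log2(TPM + 1) on the vertical axis and days after injury on the horizontal axis, with the contralateral muscle at left and the injured muscle at right of each pair. A line joins the muscles of 1 rat, and 34 of 34 lines rise for each member.

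The contralateral muscle was in turn set against control, and 5 members differed there at 3 DPI by the adjusted p though none beyond the fold limit. The 4 non-running contralateral muscles had Prrx1 between 24.2 and 33.4 TPM (29.8 ± 4.44, mean ± SD), all above the highest control of 20.72 TPM. Meox2 was between 7.23 and 11.1 TPM there, Tcf7l2 between 1.85 and 3.44 TPM and Snai1 between 2.43 and 3.75 TPM. For Prrx1, Meox2 and Snai1 these ranges did not overlap the control muscles, and Tcf7l2 met the highest control at 1.85 TPM. How many of all tested genes were separated from control at 3 DPI in this way was not counted. Msc was between 0.83 and 1.29 TPM, which overlapped control, and Snai2 between 0.27 and 1.82 TPM.

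None of the 6 members was called at any day, since no log2 difference on log2(TPM + 1) was beyond 1. With a pseudocount of 0.1 in place of 1, Msc was called at all 4 days (1.76, 1.64, 1.76 and 1.24) and Snai1 at 3 DPI (1.23), beside 20.1%, 4.83%, 4.87% and 2.94% of all genes called higher under it. At 3 DPI, 5 of 6 members had an adjusted p, and 5 an unadjusted p, under 0.05 in limma. Of all tested genes, 65.7% were higher by adjusted p alone and 69.5% had an unadjusted p under 0.05 in either direction. Prrx1 was 0.89 ± 0.18 higher (adjusted p = 1.47e-05), Snai1 0.84 (adjusted p = 0.00333), Meox2 0.73 (adjusted p = 0.000321), Msc 0.63 (adjusted p = 0.014) and Tcf7l2 0.60 (adjusted p = 0.000325), while Snai2 was at 0.46 (adjusted p = 0.117). Of all tested genes, 7.09% were called higher in contralateral muscle at 3 DPI, and the all-gene median difference was 0.441. With size factors Prrx1 was at 0.34 (adjusted p = 0.017), Msc at 0.59 (adjusted p = 0.0378) and the other members above an adjusted p of 0.05. Prrx1 was 0.59 higher (adjusted p = 0.00383) without the low right TA of the second control rat. It crossed the fold limit without the left TA of either control rat (1.00 and 1.03) or without contralateral rat 017 (1.01).

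By 7, 14 and 28 DPI the shares of all genes called higher were 0.9%, 0.953% and 0.494%. Members at an unadjusted p under 0.05 numbered 3, 1 and 0 of 6 on those days in limma, beside 28.2%, 20.9% and 16.8% of all genes. Msc at 7 DPI (0.59, adjusted p = 0.0282) was the 1 member below the adjusted threshold, which 11.8% of all genes passed on the higher side. The Prrx1 contralateral muscles averaged 17.8 ± 2.69 TPM at 7 DPI (non-running, n = 10), 17.3 ± 1.0 at 14 DPI (n = 4) and 19.1 ± 0.559 at 28 DPI (n = 4), beside 16.4 ± 5.96 in control. Without the right TA of the second control rat, at 7.68 TPM, the Prrx1 difference from control was -0.15 at both 7 and 14 DPI, so its direction rests on that muscle. Over all days and both running labels, contralateral muscles above every control numbered 34 of 34 for Snai1, 27 for Snai2, 22 for Msc, 18 for Meox2, 13 for Tcf7l2 and 11 for Prrx1, and 2.29% of all tested genes had all 34 above.

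Within injured muscle, members were called between 7 and 14 DPI and at no other step. All 6 members were lower at 14 DPI than at 7 DPI in non-running rats of both arms, each with an adjusted p under the threshold in limma, as were 69.7% of all genes. Of the 6, 2 were called, beside 8.02% of all genes called lower. The rats at 14 DPI covered only part of the rat-number ranges at 7 DPI, so day and range were partly mixed. Snai1 fell by 1.57 on the log2 scale (SE 0.16, adjusted p = 8.53e-15). Over all injured muscles its level went from 32.7 ± 13.3 TPM (15 to 70.7, n = 24) to 9.31 ± 2.47 TPM (6.27 to 15.9, n = 16). Msc fell by 1.03 (SE 0.14, adjusted p = 7.94e-10), from 20.5 ± 6.79 TPM (8.18 to 32) to 8.76 ± 2.23 TPM (6.07 to 14.5), so its ranges overlapped.

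The call for Msc rested on the fold limit: its difference was -0.66 with size factors, -0.79 in the non-repaired arm alone, and -0.96 without MMG rat 143 at 14 DPI. Snai2 fell by 0.73, Prrx1 by 0.69, Tcf7l2 by 0.58 and Meox2 by 0.55 on the same scale. The all-gene median moved by -0.387, and under size factors by -0.05. The split of all calls turned with it, from 9.74% higher to 54.8% higher.

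From 3 to 7 DPI no member was called, beside 4.71% of all genes called lower. The rats of these days shared only part of their number ranges. Meox2 was 0.32 higher at 7 DPI (adjusted p = 0.00817) and Snai2 0.37 higher (adjusted p = 0.038), beside 23.1% of all genes higher by adjusted p alone, while Snai1 (-0.24, adjusted p = 0.164) and Prrx1 (-0.06, adjusted p = 0.612) did not pass. Over all injured muscles Meox2 averaged 28.9 ± 5.1 TPM at 3 DPI and 34.5 ± 5.0 at 7 DPI, and Prrx1 106 ± 19.2 and 93.4 ± 13.7.

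From 14 to 28 DPI again no member was called, beside 0.909% of all genes. Snai2 was 0.82 lower (adjusted p = 0.000851), Snai1 0.57 lower (adjusted p = 0.021) and Msc 0.52 lower (adjusted p = 0.0188), beside 11.6% of all genes lower by adjusted p alone. Prrx1, Meox2 and Tcf7l2 did not pass the adjusted threshold (-0.29, -0.31 and -0.18). The rats at 14 DPI and those at 28 DPI shared no range of rat numbers. Day and number range therefore cannot be told apart at this step. At 28 DPI the 12 injured muscles averaged 5.3 ± 2.06 TPM for Msc, 5.74 ± 1.6 for Snai1, 3.59 ± 1.01 for Snai2, 4.3 ± 0.881 for Tcf7l2, 43.1 ± 10.2 for Prrx1 and 18.4 ± 3.7 for Meox2.

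Whether the graft changed the members was asked by setting MMG against non-repaired muscle in non-running rats. No member was called at any day, beside 0.00883%, 0.0883%, 0.0265% and 0% of all tested genes called in either direction at 3, 7, 14 and 28 DPI. Members at an unadjusted p under 0.05 numbered 2, 2, 0 and 0 of 6 in limma, beside 17.3%, 27%, 5.23% and 1.24% of all tested genes at that threshold.

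The 2 members below the adjusted threshold were Msc and Snai1 at 7 DPI, beside 8.15% of all genes higher with the graft by adjusted p alone. Snai2, also a repressor, differed by 0.03 there, the smallest difference of the 6 members. Msc ran from 16.5 to 30.6 TPM with a median of 23.9 in 8 MMG muscles, beside 8.18 to 27.7 TPM with a median of 14.1 in 8 non-repaired muscles. Snai1 ran from 26.9 to 70.7 TPM with a median of 35.2, beside 15 to 32.2 TPM with a median of 23.2. Pooled over rats, the groups overlapped for both genes. The rats fall into 3 ranges of numbers, and within each range all MMG muscles were above all non-repaired ones for Snai1: 32.46 to 70.7 against 21.99 to 32.2 TPM in the first (4 muscles each), 26.87 to 27.08 against 17.68 to 24.32 in the second (2 each) and 37.15 to 38.68 against 14.99 to 17.48 in the third (2 each). For Msc this held in the ranges of 2 muscles but not in the first, at 18.77 to 30.65 against 13.93 to 27.68 TPM. The share of all tested genes separated in this way was not counted, so these ranges only describe the muscles. Msc was 0.66 ± 0.16 higher with the graft (95% interval 0.33 to 0.99, adjusted p = 0.00768) and Snai1 0.67 ± 0.18 higher (0.31 to 1.03, adjusted p = 0.014). With the rat-number range as a covariate the adjusted p was 0.00578 for Msc and 0.00773 for Snai1. Neither stayed under the adjusted threshold with size factors (adjusted p = 0.0586 and 0.0685) or with the compared groups fitted alone (adjusted p = 0.116 for both). With the 13 dropped libraries kept, Snai1 was 1.01 higher and called. In running rats at 7 DPI (n = 4 per arm), Snai1 averaged 36.7 ± 11.7 TPM with the graft and 37.1 ± 17.5 without. Msc averaged 24.0 ± 7.29 and 20.9 ± 6.68 TPM in these groups. From non-running to running rats the graft difference changed by -0.64 for Snai1 and -0.47 for Msc (limma interaction, adjusted p of 0.88 or more).

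At 3 DPI Snai2 was 0.66 higher with the graft (0.15 to 1.17, adjusted p = 0.223), with 6.88 to 17.2 TPM in 7 MMG muscles and 3.92 to 9.99 TPM in 3 non-repaired muscles. Prrx1 was 0.38 higher (0.04 to 0.72, adjusted p = 0.255). At 14 and 28 DPI all 6 differences lay between 0.10 and 0.33 with adjusted p of 0.73 or more. Intervals at those days reached as far as 0.86 for Snai2 and 0.76 for Snai1, so differences of that size could not be set aside.

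Running, averaged over the repair arms, called no member either, beside 0.0177%, 0%, 0% and 0.309% of all genes at 3, 7, 14 and 28 DPI. Members at an unadjusted p under 0.05 numbered 0, 2, 0 and 2 of 6 in limma, beside 16%, 15.8%, 5.17% and 13.7% of all genes. At 28 DPI Msc was at 4.52 and 4.26 TPM in running non-repaired and 3.82 and 3.5 TPM in running MMG muscles, beside 4.1 to 6.32 TPM in non-running non-repaired and 3.18, 10.48, 4.76 and 7.56 TPM in non-running MMG ones. The running values lay inside the non-running range. Msc was 0.41 lower with running (95% interval of the difference -0.80 to -0.01, adjusted p = 0.355), and Prrx1 0.33 lower (-0.63 to -0.03, adjusted p = 0.306). At 7 DPI Snai2 was 0.39 higher (0.07 to 0.71, adjusted p = 0.251). The effects of graft and running did not differ detectably from a sum, with no member called for the interaction beside 0.00883%, 0%, 0% and 0.00883% of all genes, and 1, 1, 0 and 0 members at an unadjusted p under 0.05 in limma, beside 4.21%, 2.9%, 2.27% and 0.697% of all genes. The widest interaction intervals, at 28 DPI with 2 running muscles per arm, ran from -0.92 to 0.89 for Snai2 and from -0.79 to 0.97 for Snai1. The limits farthest from 0 were -1.26 for Snai1 at 7 DPI, -1.24 for Snai2 at 3 DPI and -1.15 for Msc at 28 DPI.

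**Figure D4:**
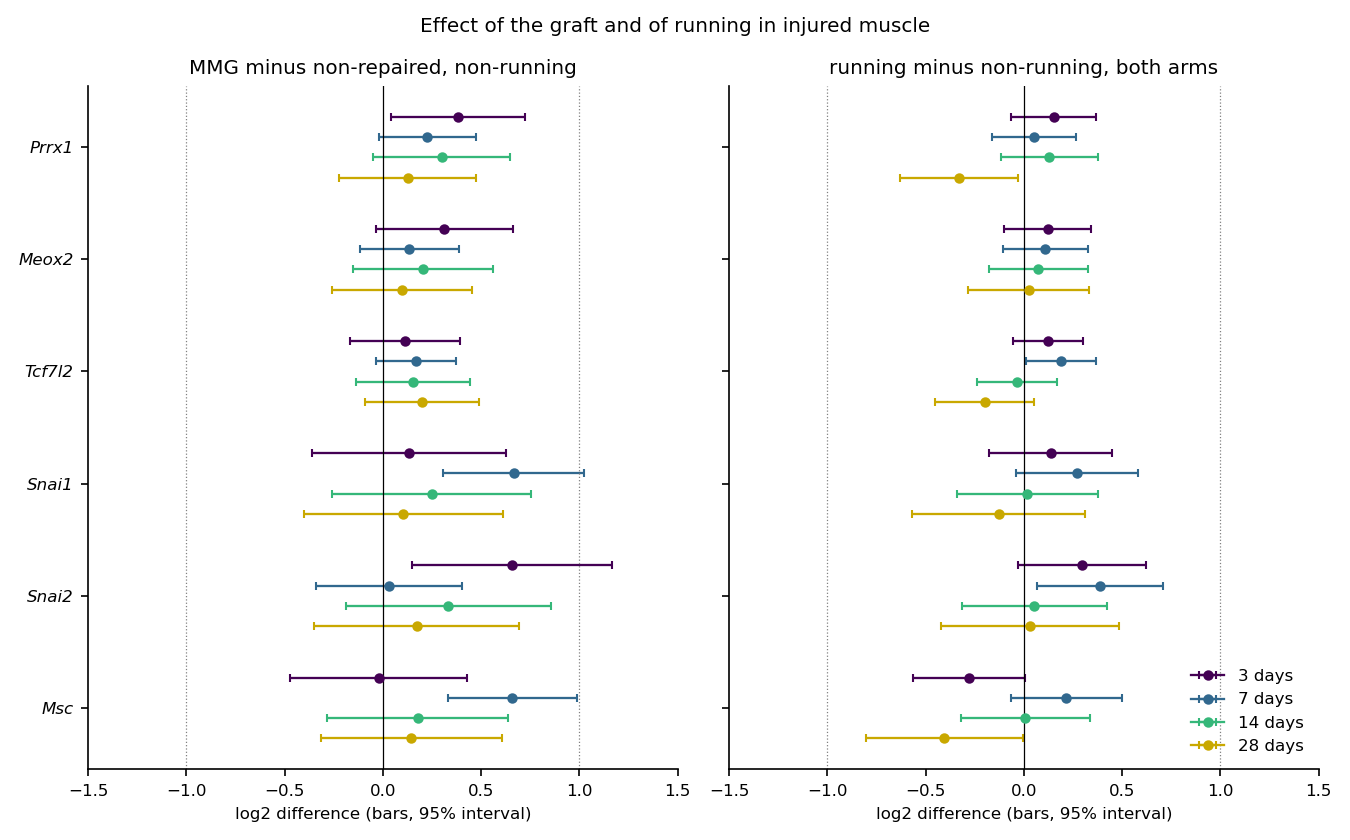
Log2 difference of MMG against non-repaired muscle (left panel) and of running against non-running muscle (right panel) in injured TA, on the horizontal axis, for the 6 tested members on the vertical axis, with days in colours, 95% intervals from limma as bars and the fold limit of 1 as dotted lines. Most intervals cross 0, and the graft differences of Msc (0.66) and Snai1 (0.67) at 7 DPI lie above it.

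The wider families of these factors were read from lists. Of 39 other mesenchymal transcription factors tested, 24, 26, 17 and 10 were called higher than control in non-repaired muscle at 3, 7, 14 and 28 DPI, and 2 were called lower, at 3 DPI. The list's median difference was 1.229, 1.425, 0.893 and 0.7, above the all-gene medians given earlier. Runx1, a runt-domain factor, was 4.55 higher at 3 DPI and the Prrx1 relative Prrx2 3.56 higher, while Nfix and Tbx15 fell by 1.04 and 1.38.

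Of 22 other repressors of myogenic differentiation, 9, 11, 7 and 6 were called higher and 1, 1, 1 and 0 lower, with medians of 0.927, 0.866, 0.49 and 0.634, close to those of all genes. Tgfb1, the cytokine TGF-beta 1, was 4.22 higher at 3 DPI and Id2, an inhibitor of bHLH dimers, 3.76 higher, whereas myostatin (Mstn), a secreted brake on muscle growth, fell by 1.42. Of 11 myogenic factors and E proteins, the factors that such repressors act on, 7, 7, 6 and 7 were called higher and none lower, with Myog (myogenin) 6.39 higher and Myf5 2.04 higher at 3 DPI. Of 18 tested TCF and LEF partners and Wnt targets, 8, 9, 5 and 5 were called higher, with Myc (3.47) and the co-repressor Tle3 (3.34) the highest at 3 DPI. These counts are to be read beside the 48.3%, 45.6%, 25% and 21.1% of all tested genes called higher on the same days, and the share of the TCF and LEF list was near that background.

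Cell type markers differed from control as well, and the same all-gene shares are the background for their counts. Fibro-adipogenic and fibroblast markers were called higher than control in 23, 23, 24 and 24 of 24 genes at 3, 7, 14 and 28 DPI, and their summed level ran from 209 to 650 TPM in control and from 8069 to 25322 TPM in injured muscle at 3 DPI. Leukocyte markers were called in 18, 18, 17 and 14 of 18, with sums of 23.5 to 52.6 TPM in control and 4632 to 8655 TPM at 3 DPI. Satellite cell and myoblast markers were called in 13, 12, 10 and 9 of 15. Muscle fiber markers were lower in 16, 9, 3 and 1 of 16, with sums of 279010 to 341418 TPM in control and 28442 to 108393 TPM at 3 DPI, and these defining markers of the tissue were present in every group. Cell cycle genes were called higher in 16, 16, 11 and 2 of 16, endothelial markers in 8, 9, 5 and 3 of 12, smooth muscle and pericyte markers in 6, 8, 6 and 4 of 11, tendon markers in 5, 7, 6 and 4 of 7, adipocyte markers in 2, 3, 2 and 5 of 7 and B cell markers in 2, 2, 0 and 0 of 4, with the B cell gene Ms4a1 at 0 in every control. In contralateral muscle at 3 DPI, where Prrx1 and Meox2 were above control, 22 of 24 fibro-adipogenic, 16 of 18 leukocyte and 0 of 16 fiber markers were called, beside 7.09% of all tested genes called higher in that comparison. The part of these cell types in the members' levels was not tested.

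Across the 31 groups the members' mean levels on log2(TPM + 1) ran close together, with Pearson's r between members from 0.932 (Snai1 and Meox2) to 0.986 (Msc and Snai2). The points share the injury. Within the 76 injured muscles r was 0.776 to 0.899, and these muscles still mix the days after injury. No r over all pairs of genes was taken as a background. The 3 tested genes whose group means were most like a member were Armcx2 (r = 0.994), Olfml2b and Dbn1 for Msc, Myl6 (0.995), Pck2 and Nradd for Snai1, and Evc2 (0.994), Scara3 and Thy1 for Snai2. For Tcf7l2 they were Hace1 (0.992), Smad1 and Bhlhb9, for Prrx1 Brf1 (0.995), Map4k4 and Abl1, and for Meox2 Lpar1 (0.994), Aebp1 and Fstl1. Over single muscles in place of groups, 2 of these 3 genes were shared for Msc and 1 for each other member.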

How the data were processed

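RNA of whole TA muscles of Lewis rats was sequenced in 138 libraries. The authors quantified reads with Kallisto at default settings on rat genome build 6.0 and deposited 1 table of TPM per symbol. The TPM values were used as deposited, and read depth is unknown from them, so no counting intervals are given. Its 16182 entries run alphabetically and stop at a truncated one, and the 16181 complete symbols, up to Tubb3, were used. Genes sorting after Tubb3 were not analysed here.

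Libraries were joined to labels by name. Of these, 9 were left in no group (8 from 28-day running rats for which title and label disagree on the muscle, and 1 with conflicting days), and 13 with fewer than 7000 symbols above 1 TPM (901 to 5712; 8 injured, 5 contralateral) were dropped. The 116 others, averaged per muscle, gave 114 muscles in 31 groups. The study tested counts with another tool. As the values here are TPM, log2(TPM + 1) was fitted with limma 3.58.1 (R 4.3.3, statmod 1.5.0), with an intensity trend, in 1 model with 83 residual degrees of freedom, for 11328 genes with a group mean above 1 TPM. Adjusted p values are Benjamini-Hochberg over all tested genes, and calls needed 0.05 and a log2 fold change beyond 1. The script was tested on simulated data.

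Titles name the rat, so left and right TA are paired. The deviations of 34 same-rat pairs from their group means correlated at a median r of 0.0786, with 15 pairs above 0.1, beside -0.00104 over 6195 pairs of different rats, and limma estimated a within-rat correlation of 0.026. The 4 control muscles came from 2 rats, and p values treat them as separate samples.

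Named genes were the 7 members, the 2 highest and 2 lowest called genes of a list, and the 3 genes most like each member by r of group means. Members and lists were chosen with earlier results of these data known. Alternatives were a pseudocount of 0.1, no filter, size factors, the rat as a random block, all libraries kept, each library as a sample, compared groups alone, rat-number range as a covariate, adjusted p alone, each arm alone, and leaving out in turn each of the 71 muscles in groups of 4 or fewer. Size factors with the block were added after seeing the data.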

Additional observations from a re-analysis of the deposited data

Results flagged for a closer look

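In groups of 4 to 10 muscles, 107 sets of a member in a group were looked at for 1 muscle far from the others, and 13 had one. A muscle was set apart when its gap to the nearest one, divided by the range of the group, passed a limit for the group size. Chance alone sets some muscles apart, at a rate not measured here, and the Tcf21 cases are groups otherwise at or near 0. Msc was at 9.47 TPM in rat 101 of the running non-repaired group at 3 DPI, below its other 7 muscles (11.97 to 13.775 TPM). Snai1 was at 1.43 TPM in the right TA of the first control rat (others 1.07 to 1.1 TPM). Snai1 was also high in 3 MMG-treated muscles: 75.92 TPM in rat 025 at 3 DPI with running (others 25.27 to 39.67 TPM), 70.7 TPM in rat 023 at 7 DPI (others 26.87 to 38.68 TPM) and 15.86 TPM in rat 135 at 14 DPI (others 7.65 to 9.02 TPM). Of these 3 muscles the one of rat 135 was left out in a refit, and no Snai1 call changed. The other 2 lie in groups of more than 5 muscles and were not left out.

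Tcf21 stood at 0.08 TPM in rat 011 of the non-repaired group at 7 DPI, where the others were at 0 to 0.03 TPM. It was the 1 muscle above 0 at 0.05 TPM in rat 138 (running non-repaired, 14 DPI) and rat 075 (MMG, 28 DPI). It was so at 0.04 TPM in contralateral rat 015 (MMG, 7 DPI) and in injured rats 141 (non-repaired, 14 DPI), 013 (MMG, 3 DPI), 008 (running MMG, 7 DPI) and 003 (running non-repaired, 7 DPI).

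Injured muscle differed between 7 and 14 DPI for Snai1 (-1.57 on the log2 scale) and Msc (-1.03), both tested in limma and described above.

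Some libraries in no group held the 6 tested members above the highest control, and others held some of them at or below it. The highest values were 39.05 TPM for Prrx1, 20.6 for Meox2, 7.42 for Snai1, 6.44 for Msc, 4.48 for Tcf7l2 and 3.96 for Snai2, beside control maxima of 20.72, 7.02, 1.43, 0.85, 1.85 and 0.41 TPM.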

How the results depend on the processing

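Of 3800 differences of single members recomputed under the alternatives, 3717 kept their side of the threshold, 48 lost and 35 gained the call, and 0 called differences turned direction. With the rat as a replicate block the counts of members called stayed at 6, 6, 6 and 5 for injured against contralateral non-running muscle, and the block changed no call of a member in any comparison. Size factors, with or without the block, lowered members called at 28 DPI to 3 (non-repaired against control), 3 (MMG against control) and 3 (injured against contralateral, non-running), and at 14 against 7 DPI to 1. That last count was also 1 with all libraries kept, with the rat-number covariate and in the non-repaired arm alone, and ranged from 1 to 2 with 1 muscle left out, the loss coming without MMG rat 143. With a pseudocount of 0.1, contralateral against control called 2, 1, 1 and 1 members at 3, 7, 14 and 28 DPI (Msc at each day, with Snai1 at 3 DPI). With a pseudocount of 1 and 1 muscle left out it called 0 to 1 at 3 DPI, the 1 being Prrx1. With all libraries kept, MMG against non-repaired at 7 DPI called 1 (Snai1). Adjusted p alone passed 2 there, 5 and 1 for contralateral against control at 3 and 7 DPI, and 2, 6 and 3 for 7 against 3, 14 against 7 and 28 against 14 DPI. Injured against contralateral non-running muscle at 28 DPI called 5 to 6 with 1 muscle left out and 6 in the MMG arm alone. Of the 3 genes most like Snai1, Snai2, Tcf7l2, Prrx1 and Meox2, 1 each was shared over single muscles. The cause of these changes was not tested, except that dropping the fold limit adds calls by construction. Without the right TA of the second control rat, uncalled contralateral differences of Prrx1 (-0.15 at 7 and 14 DPI, -0.01 at 28 DPI), Tcf7l2 (-0.08 at 7 and -0.05 at 14 DPI) and Meox2 (-0.16 at 28 DPI) changed sign.

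Counts over all genes moved beyond 1.5 times in 29 of 34 comparisons with adjusted p alone (5954 to 9656 for non-repaired against control at 3 DPI), 19 with the pseudocount of 0.1 (contralateral against control at 3 DPI 810 to 2292), 9 with the compared groups alone, 5 with all libraries kept (MMG against non-repaired at 7 DPI 10 to 124), 4 with size factors (contralateral at 3 DPI 810 to 365, 14 against 7 DPI 1006 to 577, injured against contralateral at 28 DPI 1838 to 1207, MMG at 7 DPI 10 to 1), 3 of 22 with the covariate and 2 with each library as a sample. Size factors took the higher share of calls against control from 91.9%, 95%, 97.9% and 99% to 59.2%, 60.6%, 72.8% and 78.4% in non-repaired muscle, and against contralateral from 84.5%, 94.4%, 98.5% and 98.4% to 59.4%, 60.1%, 70.3% and 79.5%.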

Other observations

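Rats 077, 078, 079 and 080 (28 DPI, running) each gave 2 libraries whose muscle could not be assigned. Msc was at 0.96 and 2.62 TPM in the first rat, 0.4 and 4.39 in the second, 1.0 and 5.65 in the third and 1.21 and 6.44 in the fourth. Prrx1 was at 20.8 and 32.09, 17.38 and 38.25, 14.67 and 36.54, and 18.34 and 39.05 TPM in the same order. The library of rat 011 with conflicting day labels held Msc at 1.0, Snai1 at 2.72, Snai2 at 0.98, Tcf7l2 at 2.22, Prrx1 at 22.68 and Meox2 at 9.01 TPM, and Tcf21 was at 0 in all 9. In the 13 dropped libraries Tcf21 was at 0 in 12, Msc in 8, Snai1 and Snai2 in 6, Tcf7l2 and Prrx1 in 3 and Meox2 in 2.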
